A study of Homo sapiens with 31 samples.

Results

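ATP-binding cassette (ABC) transporters that carry drugs out of cells were followed across tumours grown from PC3, an established human prostate carcinoma cell line, and from 3 clones of it. The 10 genes were ABCB1, ABCB4, ABCC1, ABCC2, ABCC3, ABCC4, ABCC5, ABCC10, ABCC11 and ABCG2. Each was read from the probe sets annotated to its symbol alone, and each had exactly 1 such probe set, so that all 10 were among the 17314 genes measured on the arrays. No filter on low values was applied.

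The tumours were xenografts, human cells implanted and grown in an animal host that the labels do not describe. D4 and D3 are clones re-isolated after growth in the host and labelled as resistant to cyclophosphamide (CPA). A3 is a clone that also passed through the host and is labelled as sensitive, and wt is the unpassaged, sensitive parent line. In each line one set of tumours received CPA intraperitoneally at 120 mg per kg once the mean tumour volume had reached 30 mm3, and the other set was left untreated as the control. The 8 combinations of line and treatment had 4 arrays apiece, except untreated A3 with 3. Whether arrays of a group came from separate animals is not stated, and the p-values therefore describe variation among arrays that may be technical. Each of D4, D3 and A3 is a single clone, so a property of the clone and an effect of passage or of resistance cannot be told apart.

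ABC efflux transporters use ATP to move compounds across the plasma membrane, and a cell that holds more of them can lower its drug load. P-glycoprotein (ABCB1), the multidrug resistance proteins of the ABCC branch and the breast cancer resistance protein (ABCG2) are the classical multidrug pumps. CPA is a prodrug that liver cytochrome P450 enzymes activate to an alkylating agent, and its reactive products can be bound to glutathione, whose conjugates are typical cargo of several ABCC proteins.

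Values are log2 expression levels on Affymetrix gene arrays. Array medians lay between 6.59 and 6.73, and arrays of the same group correlated at 0.985 to 0.997 over all genes. No detection call comes with the values, so a low level cannot be told from background, and levels of different genes are not compared here. A difference was called when its p-value from limma, adjusted by the Benjamini-Hochberg method over all 17314 genes, was under 0.05. The epithelial marker KRT8 averaged 9.95 ± 0.20 in untreated wt tumours (SD, n = 4). Of the 2 prostate lineage genes measured, the secretory gene KLK3 averaged 5.92 ± 0.26 there and HOXB13 averaged 10.72 ± 0.08. HOXB13 was called lower than wt in A3 in both treatments and in CPA-treated D4. Of the 5 epithelial markers tested, the 1 called lower in all 6 comparisons of a clone with wt was CDH1, which encodes E-cadherin. Tumours were measured in bulk, so fewer cells of a type and less RNA per cell cannot be told apart.

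**Figure D1:**
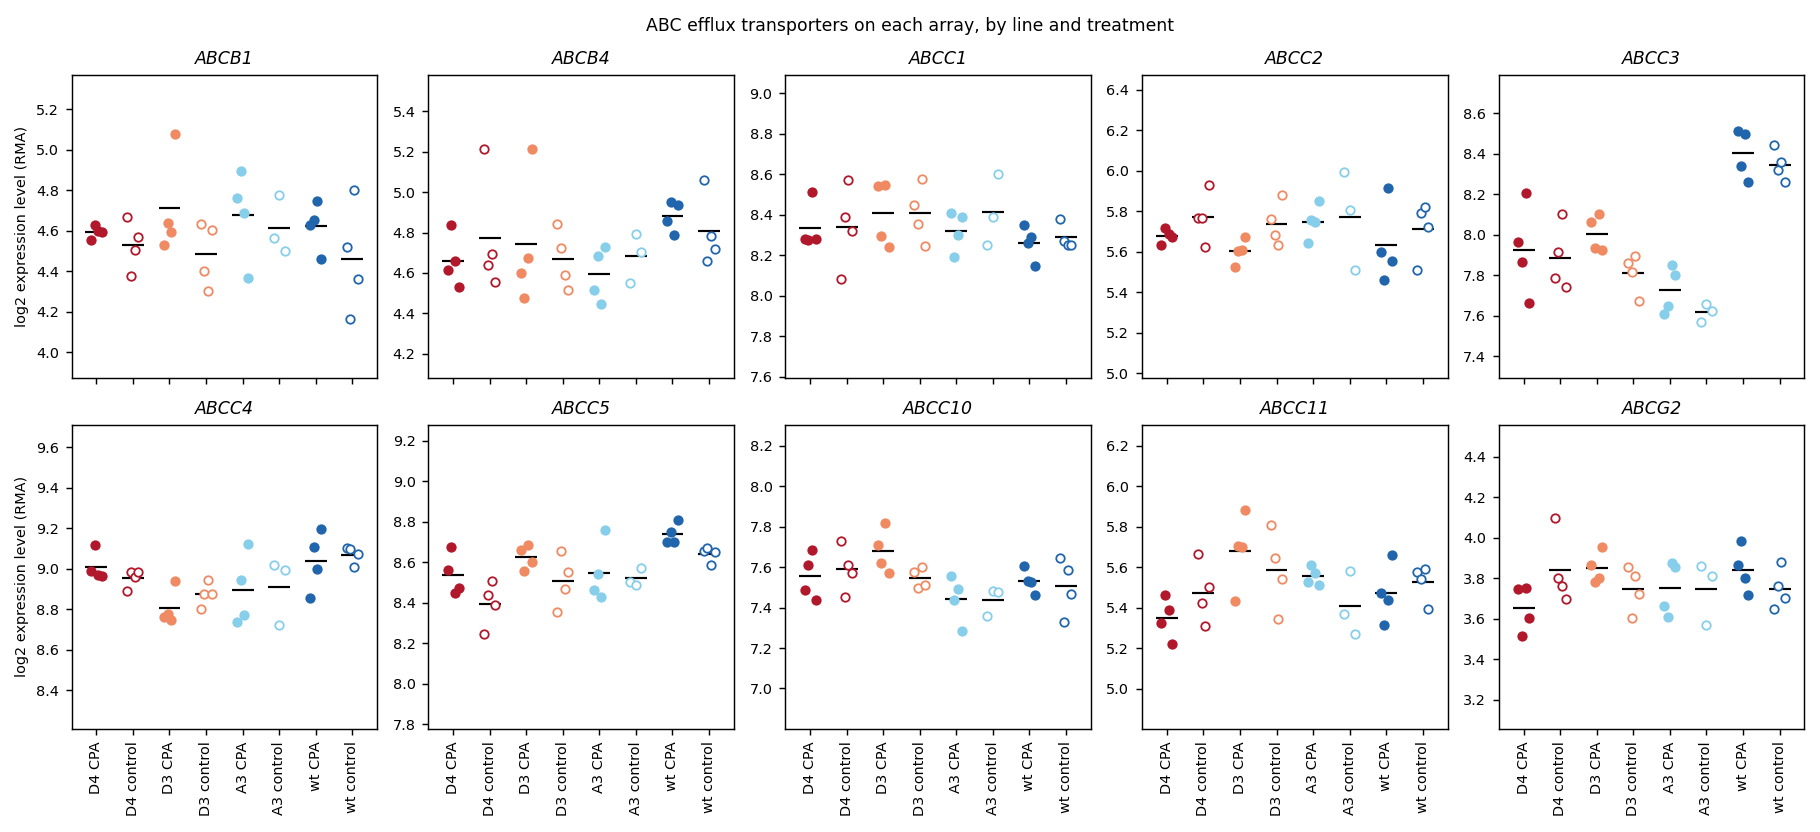
Log2 expression level (vertical axis, RMA) of each of the 10 transporters on every array, with the 8 groups along the horizontal axis. Points are arrays (filled, CPA-treated; open, untreated) and bars are group means, and every panel spans the same number of log2 units. In the ABCC3 panel all clone arrays sit between 7.57 and 8.21, below all wt arrays at 8.26 to 8.51.

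The questions were whether the lines differed from each other and whether CPA changed a transporter within a line. Over the 8 groups together, limma's F test called ABCC3 (adjusted p = 3.49e-07) and ABCC5 (adjusted p = 0.0203), that is 2 of the 10, against 35.4% of all genes. Of the 60 combinations of gene and line pair, 4 were called in untreated tumours (6.67%, against 10.5% of all such combinations) and 5 in CPA-treated tumours (8.33%, against 12.1%). Both shares lay below those among all genes, and 6 of the 9 calls belonged to ABCC3. At an unadjusted p under 0.05, 6 of the 60 combinations passed in untreated tumours (10%, against 21.1%) and 16 in CPA-treated tumours (26.7%, against 27.1%).

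The promoter stretches of ABCC4 and ABCC5 are shown because both genes had a called difference and each has a single RefSeq promoter entry. They cover the 250 bases upstream of the annotated start in GRCh38.p14, written 5′ to 3′ on the gene's strand. Capitals mark matches to the motifs searched. ABCC4 lies at chr13:95301452-95301701, minus strand, and ABCC5 at chr3:184017885-184018134, minus strand.
ABCC4: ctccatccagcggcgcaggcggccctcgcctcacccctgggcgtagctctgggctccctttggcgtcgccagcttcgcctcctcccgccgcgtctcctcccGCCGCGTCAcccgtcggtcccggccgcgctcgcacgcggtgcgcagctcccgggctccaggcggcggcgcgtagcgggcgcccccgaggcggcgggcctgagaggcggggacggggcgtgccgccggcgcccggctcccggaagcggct
ABCC5: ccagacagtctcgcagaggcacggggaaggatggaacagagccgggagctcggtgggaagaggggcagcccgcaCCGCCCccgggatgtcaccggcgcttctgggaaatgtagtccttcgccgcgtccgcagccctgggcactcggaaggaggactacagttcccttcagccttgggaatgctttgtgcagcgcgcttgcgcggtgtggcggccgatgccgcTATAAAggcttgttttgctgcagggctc

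The ABCC4 stretch has a GC content of 80.4% and a match to the antioxidant response element, TGACNNNGC, on the opposite strand 149 to 141 bases upstream. The ABCC5 stretch has a GC content of 64.8%, a GC box (GGGCGG) on the opposite strand 176 to 171 bases upstream, and a TATA box (TATAAA) 28 to 23 bases upstream. The median GC content of all promoters in the table was 58%. Both strands were searched for 5 motifs, with CCAAT and the E-box CACGTG as the others. The antioxidant response element was present in 10.9% of all 35116 promoters, the TATA box in 10.7%, the GC box in 42.6%, CCAAT in 32% and the E-box in 6.34%. A match describes the letters and is not evidence of binding.

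ABCC3 encodes multidrug resistance protein 3, an exporter of glucuronide conjugates and bile salts on the basolateral membrane. It was lower in all 3 clones than in the parent line, with or without CPA, and it was lowest in A3, the sensitive clone. Its probe set was 8008454 and the gene lies on chromosome 17. In D4 tumours ABCC3 read 7.97, 7.87, 8.21 and 7.66 after CPA and 7.78, 7.91, 8.10 and 7.74 in controls. In D3 tumours it read 8.06, 7.93, 8.10 and 7.93 after CPA and 7.86, 7.82, 7.90 and 7.67 in controls. The arrays of these 2 resistant clones overlapped each other in both treatments. In A3 tumours ABCC3 read 7.61, 7.65, 7.85 and 7.80 after CPA and 7.57, 7.66 and 7.62 in controls. In wt tumours it read 8.51, 8.34, 8.50 and 8.26 after CPA and 8.44, 8.32, 8.36 and 8.26 in controls. No clone array reached the lowest wt array in either treatment. Arrays of untreated D4, D3 and A3 failed to overlap those of wt for 18.4%, 22.1% and 24.2% of all genes, and those of the CPA-treated clones for 20.7%, 24.2% and 19.3%.

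Untreated, ABCC3 averaged 7.88 ± 0.16 in D4 (SD, n = 4), 7.81 ± 0.10 in D3 (n = 4) and 7.62 ± 0.04 in A3 (n = 3), against 8.34 ± 0.08 in wt (n = 4). The log2 difference from wt was -0.46 ± 0.09 (SE) in D4, a level 1.38-fold lower (limma, adjusted p = 0.000579). It was -0.53 ± 0.09 in D3, or 1.45-fold lower (limma, adjusted p = 0.000118). It was -0.73 ± 0.10 in A3, or 1.66-fold lower (limma, adjusted p = 4.58e-06). Among all genes, 20.1%, 18.1% and 18.5% were called in either direction for D4, D3 and A3 against wt, so a call by itself is not rare in these comparisons.

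After CPA, ABCC3 averaged 7.92 ± 0.23 in D4, 8.01 ± 0.09 in D3 and 7.73 ± 0.12 in A3, against 8.40 ± 0.12 in wt (SD, n = 4 each). The log2 differences from wt were -0.48 ± 0.09 in D4 (adjusted p = 0.000514), -0.40 ± 0.09 in D3 (adjusted p = 0.00389) and -0.68 ± 0.09 in A3 (adjusted p = 4.79e-06; limma, SE). Called genes made up 15.1%, 16.4% and 16.3% of all genes in these comparisons. A gene called lower than wt in all 6 comparisons of a clone with wt was less common, at 537 of 17314 genes (3.1%), and ABCC3 was the only transporter of the 10 among them. The 3 comparisons within a treatment share the wt arrays.

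Ordered by mean, ABCC3 was lowest in untreated A3, followed by CPA-treated A3, untreated D3, untreated D4, CPA-treated D4, CPA-treated D3, untreated wt and CPA-treated wt. Neighbours in this order had overlapping arrays, except CPA-treated D3 and untreated wt, whose means lay 0.34 apart. Among the clones, untreated D4 exceeded untreated A3 by 0.27 and untreated D3 exceeded it by 0.19, with no overlap of arrays and adjusted p-values of 0.160 and 0.491 (limma). CPA-treated D3 exceeded CPA-treated A3 by 0.28 (limma, adjusted p = 0.0921), again without overlap. None of these passed the threshold, although with the replicate number as a block ABCC3 was called for untreated D4 against A3 (adjusted p = 0.0316) and for CPA-treated D3 against A3 (adjusted p = 0.0157, and 0.0416 after a further quantile normalization). Among all genes, 3.77% were called between untreated D4 and A3, 2.27% between untreated D3 and A3 and 4.55% between CPA-treated D3 and A3, and arrays did not overlap for 9.62%, 12.3% and 9.65%. Between CPA-treated D4 and A3, where 12.4% of all genes were called, ABCC3 differed by 0.20 (limma, adjusted p = 0.161, and 0.0410 with the replicate block). D4 and D3 differed in ABCC3 by 0.07 untreated and by -0.08 after CPA, neither called by limma, and 0.323% of all genes were called between these clones when untreated.

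Some epithelial markers were also lower in the clones, and others were not. Of the 5, 20% were called against wt in untreated D4, 20% in D3 and 60% in A3, with 0 higher. Among all genes 20.1%, 18.1% and 18.5% were called in either direction. The median difference of the 5 was 0.02 in D4, 0.05 in D3 and -0.39 in A3. KRT19 averaged 10.5 in D4, 10.5 in D3 and 10.6 in A3, against 10.4 in wt (untreated). The mean level of the 5 markers, which was not itself tested, was 9.07 ± 0.16 in D4, 9.08 ± 0.09 in D3 and 8.88 ± 0.04 in A3, against 9.20 ± 0.11 in wt (untreated, SD). CDH1 differed from wt by -0.90 in D4, -0.80 in D3 and -1.03 in A3 when untreated, while EPCAM (-0.39) and KRT8 (-0.46) were called lower in A3 alone (limma, adjusted p = 0.000975 and 0.00999). The part of these markers in the ABCC3 difference was not tested.

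**Figure D2:**
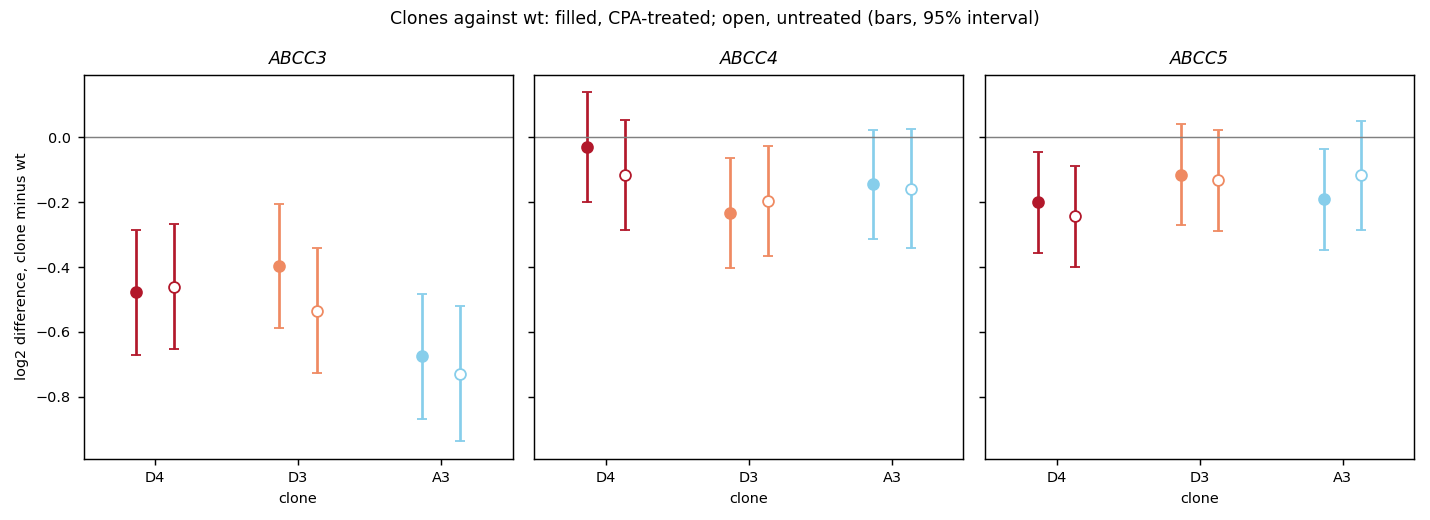
Log2 difference of each clone from wt (vertical axis) for ABCC3, ABCC4 and ABCC5, with the clones D4, D3 and A3 along the horizontal axis. Points are differences of group means (filled, CPA-treated; open, untreated) and bars are 95% confidence intervals from the limma fit. All 6 intervals of ABCC3 lie below 0, between -0.94 and -0.20.

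ABCC5 encodes multidrug resistance protein 5, an exporter of cyclic nucleotides and nucleotide analogues. It was lower in untreated D4 than in untreated wt, by a small margin. In D4 tumours ABCC5 read 8.56, 8.67, 8.45 and 8.47 after CPA and 8.25, 8.44, 8.51 and 8.39 in controls. In D3 tumours it read 8.66, 8.56, 8.68 and 8.60 after CPA and 8.35, 8.65, 8.47 and 8.55 in controls. In A3 tumours it read 8.46, 8.54, 8.43 and 8.76 after CPA and 8.50, 8.49 and 8.57 in controls. The arrays of the 3 clones overlapped. In wt tumours ABCC5 read 8.70, 8.75, 8.70 and 8.81 after CPA and 8.65, 8.67, 8.59 and 8.65 in controls. Each untreated D4 array lay below each untreated wt array, and arrays of these groups failed to overlap for 18.4% of all genes. Arrays of untreated A3 and of CPA-treated D4 and D3 also lay below those of wt in the same treatment. The shares of all genes without overlap were 24.2%, 20.7% and 24.2% there.

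The difference of untreated D4 from wt was -0.24 ± 0.08 on the log2 scale, or 1.18-fold lower (limma, SE, adjusted p = 0.0210). It was not called when the fit held only the groups compared (adjusted p = 0.115) or when the 4 arrays that lay farthest from their groups were set aside (adjusted p = 0.109). It was also lost without wt control replicate 2 (adjusted p = 0.0532) or D4 control replicate 1 (adjusted p = 0.0901). After CPA, ABCC5 differed from wt by -0.20 in D4 (adjusted p = 0.0745), -0.12 in D3 (adjusted p = 0.292) and -0.19 in A3 (adjusted p = 0.0856), none of them called by limma. The D4 difference was called with the replicate block (adjusted p = 0.0259), array weights (0.0426), quantile normalization (0.0320) and without the dimmest 30% of genes (0.0494). The A3 difference was called with the block (adjusted p = 0.0485) and with array weights (0.0270). Leaving out A3 CPA replicate 4 also gave both calls (adjusted p = 0.0475 for D4 and 0.0137 for A3), and leaving out D4 CPA replicate 2 gave that of D4 (0.0464).

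ABCC4 encodes multidrug resistance protein 4, which exports cyclic nucleotides, prostaglandins and nucleoside monophosphate analogues. In CPA-treated tumours it was lower in D3 than in wt, at the edge of the threshold. In D3 tumours ABCC4 read 8.76, 8.78, 8.75 and 8.94 after CPA and 8.80, 8.88, 8.95 and 8.87 in controls. In wt tumours it read 8.86, 9.11, 9.00 and 9.20 after CPA and 9.10, 9.10, 9.01 and 9.07 in controls. The CPA-treated arrays of the lines overlapped at 1 array of each, and the untreated arrays did not overlap. D4 and A3 arrays lay between 8.72 and 9.12. Untreated D4 arrays (8.89 to 8.98) also lay below all untreated wt arrays, with a difference of -0.12 that was not called (limma, adjusted p = 0.336). Untreated arrays failed to overlap those of wt for 18.4% of all genes in D4 and 22.1% in D3. CPA-treated D4 exceeded CPA-treated D3 by 0.20 without overlap of arrays, which was not called (limma, adjusted p = 0.0966) except with array weights (adjusted p = 0.0102). Arrays of these groups failed to overlap for 22.3% of all genes.

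The CPA-treated difference of D3 from wt was -0.23 ± 0.08 (limma, SE, adjusted p = 0.0498). The call held in 5 of 9 alternative analyses. It was lost when only the groups compared were fitted (adjusted p = 0.0833), after quantile normalization (0.145), after centring on array medians (0.0672) and with all probe sets tested (0.0501). Of the 31 fits with 1 array left out it held in 9, namely without wt CPA replicate 1, A3 control replicate 1 or 2, A3 CPA replicate 1, 3 or 4, D3 CPA replicate 5, or D4 control replicate 1 or 4. In the others the adjusted p reached 0.149. Untreated, the same pair differed by -0.20 (limma, adjusted p = 0.104), which was not called. CLDN10, the next measured gene to ABCC4 on chromosome 13 and a tight junction claudin, was lower than wt in untreated D4 by -1.17, in D3 by -1.01 and in A3 by -0.87 (all called by limma). SOX21, on the other side of ABCC4, was called higher in A3 (0.25, limma, adjusted p = 0.0476). The genes next to ABCC3, CACNA1G and ANKRD40, and those next to ABCC5, PARL and HTR3D, had 0 calls in the 12 comparisons between lines. Next to ABCC11, ABCC12 had 0 calls and LONP2 had 1. Among all combinations of gene and line pair, 10.5% were called untreated and 12.1% after CPA.

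ABCC11 encodes multidrug resistance protein 8, an exporter of lipophilic anions and of metabolites of fluoropyrimidines. Among CPA-treated tumours it was lower in D4 than in D3, the other resistant clone. In D4 tumours ABCC11 read 5.33, 5.46, 5.39 and 5.22 after CPA and 5.67, 5.42, 5.31 and 5.50 in controls. In D3 tumours it read 5.44, 5.70, 5.70 and 5.88 after CPA and 5.81, 5.64, 5.35 and 5.54 in controls. Among the CPA-treated arrays, 3 of the 4 from D3 lay above every D4 array. The difference, D4 minus D3, was -0.33 ± 0.10 (limma, SE, adjusted p = 0.0390), while 8.05% of all genes were called between these groups. It lost its call after a further quantile normalization (adjusted p = 0.0953), without the 4 farthest arrays (adjusted p = 0.0960) and in 6 of the 31 fits with 1 array left out. Those 6 were without D3 CPA replicate 3, 4 or 5 or D4 CPA replicate 1, 2 or 5. CPA-treated D4 also differed from A3 in ABCC11 by -0.21 (limma, adjusted p = 0.168), and CPA-treated D3 from wt by 0.21 (limma, adjusted p = 0.142). Neither was called. ABCC11 was among the dimmest 30% of genes.

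**Figure D3:**
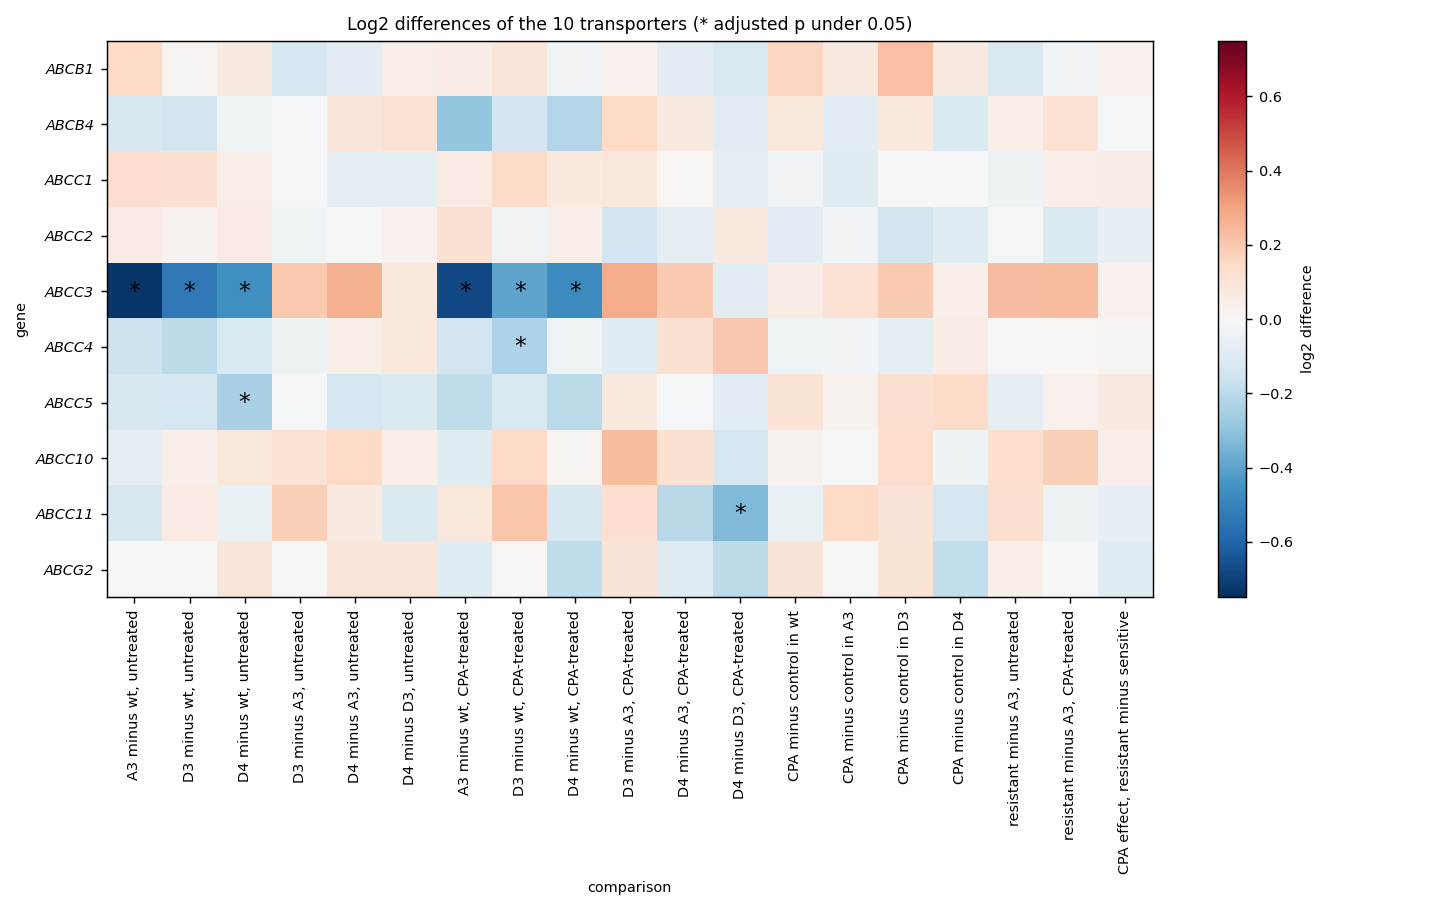
Log2 differences (colour scale) of the 10 transporters, one gene per row, in the comparisons between lines, between treatments and between resistant and sensitive lines, one comparison per column. Asterisks mark adjusted p under 0.05. Of the 9 asterisks, 6 stand in the ABCC3 row in the comparisons of a clone with wt, and none stands in a CPA or resistance column.

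The remaining 6 transporters had no called difference between lines or treatments in the fit used throughout, and alternatives that called one are named with the gene. ABCB1, the P-glycoprotein pump of anthracyclines, taxanes and vinca alkaloids, had its highest group mean in CPA-treated D3 (4.71) and its lowest in untreated wt (4.46), and its arrays spread from 4.16 to 5.08. In D4, ABCB1 read 4.56, 4.63, 4.60 and 4.59 after CPA and 4.67, 4.38, 4.50 and 4.57 in controls. In D3 it read 4.53, 4.64, 4.60 and 5.08 after CPA and 4.63, 4.40, 4.30 and 4.60 in controls. The single D3 array at 5.08 stood above the rest. In A3 ABCB1 read 4.76, 4.90, 4.69 and 4.37 after CPA and 4.56, 4.77 and 4.50 in controls, and in wt 4.63, 4.65, 4.75 and 4.46 after CPA and 4.52, 4.16, 4.80 and 4.36 in controls. All groups of ABCB1 overlapped their neighbours in order (limma, F test, adjusted p = 0.513).

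ABCB4, which moves phosphatidylcholine into bile and adjoins ABCB1 on chromosome 7, had group means from 4.59 in CPA-treated A3 to 4.88 in CPA-treated wt. The CPA-treated arrays of A3 (4.45 to 4.73) and wt (4.79 to 4.95) did not overlap, as for 19.3% of all genes. The difference of -0.29 was not called (limma, adjusted p = 0.141). It was called when only the groups compared were fitted (adjusted p = 0.0439), with array weights (0.0464), after quantile normalization (0.0400) and without the 4 farthest arrays (0.0244). Without those arrays the CPA-treated difference of D3 from wt was called too (-0.30, adjusted p = 0.0387), against -0.14 with all arrays (limma, adjusted p = 0.468).

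ABCG2, the breast cancer resistance protein that exports topotecan and mitoxantrone, had the narrow span of 3.66 in CPA-treated D4 to 3.85 in CPA-treated D3. In D4 tumours ABCG2 read 3.75, 3.52, 3.75 and 3.60 after CPA and 4.10, 3.80, 3.76 and 3.70 in controls. In wt tumours it read 3.87, 3.99, 3.80 and 3.72 after CPA and 3.65, 3.76, 3.88 and 3.70 in controls. D3 arrays lay between 3.60 and 3.95 and A3 arrays between 3.57 and 3.88. Groups next to each other in order of mean overlapped (limma, F test, adjusted p = 0.489). The groups at the ends did not, since CPA-treated D4 arrays lay at 3.52 to 3.75 and CPA-treated D3 arrays at 3.78 to 3.95. That difference of -0.20 was not called (limma, adjusted p = 0.141), and arrays of these groups failed to overlap for 22.3% of all genes. CPA-treated D4 differed from wt in ABCG2 by -0.19 (limma, adjusted p = 0.186), and was called with array weights (adjusted p = 0.0497).

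ABCC1, multidrug resistance protein 1 and an exporter of glutathione conjugates and leukotriene C4, had its highest group mean in untreated A3 (8.41) and its lowest in CPA-treated wt (8.26). Its arrays spread from 8.08 to 8.60 (limma, F test, adjusted p = 0.748). ABCC2, the apical multidrug resistance protein 2, had group means from 5.60 in CPA-treated D3 to 5.77 in untreated D4 (limma, F test, adjusted p = 0.635). ABCC10, multidrug resistance protein 7 and an exporter of taxanes, had its highest group mean in CPA-treated D3 (7.68) and its lowest in untreated A3 (7.44) (limma, F test, adjusted p = 0.192). CPA-treated D3 read 7.71, 7.62, 7.82 and 7.57 for ABCC10, and CPA-treated A3 read 7.55, 7.44, 7.49 and 7.28. These arrays did not overlap, as for 9.65% of all genes. The difference of 0.24 had an adjusted p of 0.0840 (limma), and of 0.0471 with the replicate block. ABCB1, ABCB4, ABCC2, ABCC11 and ABCG2 were among the dimmest 30% of genes measured.

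CPA against untreated tumours gave 0 calls among the 40 combinations of transporter and line by limma, against 0.414% of all such combinations. At an unadjusted p under 0.05 there was 1 (2.5%, against 11.2%), which was ABCC3 in D3, higher by 0.20 after CPA (limma, adjusted p = 0.387). The D3 arrays of ABCC3 did not overlap between treatments, nor did the wt arrays of ABCC5, which differed by 0.10, and the same held for 9.6% of all genes in D3 and 2.15% in wt. Called genes were scarce throughout, at 1.03% in D4, 0.231% in D3, 0.352% in A3 and 0.0462% in wt. The largest transporter difference was 0.18 in D4, 0.23 in D3, 0.15 in A3 and 0.16 in wt, in either direction. The 95% intervals of all 10 transporters stayed within -0.38 and 0.32 in D4, -0.33 and 0.48 in D3, -0.38 and 0.37 in A3, and -0.27 and 0.41 in wt. With 3 or 4 arrays per group, changes inside these bounds are not shown to be absent.

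Resistance was addressed by setting the mean of D4 and D3 against A3, the sensitive clone that also passed through the host. That the clones had alike passages or treatment there is not shown here. In untreated tumours limma called 0 of the 10 transporters, against 3.89% of all genes, with 1 at an unadjusted p under 0.05 (14.3% of all genes). That gene was ABCC3, at 7.85 in the resistant clones and 7.62 in A3, a difference of 0.23 ± 0.09 (SE, 95% interval 0.05 to 0.41, limma, adjusted p = 0.183). The resistant and A3 arrays of ABCC3 did not overlap, as for 4.94% of all genes. In CPA-treated tumours limma again called 0 of 10, against 8.1% of all genes, with 2 at an unadjusted p under 0.05 (19.9% of all genes). They were ABCC3, with a difference of 0.24 (95% interval 0.07 to 0.40, adjusted p = 0.0685), and ABCC10, with a difference of 0.18 (95% interval 0.04 to 0.32, adjusted p = 0.121). The 95% intervals of all 10 lay within -0.35 and 0.41 untreated and within -0.28 and 0.40 after CPA. The ABCC3 value after CPA was called in several alternatives, with adjusted p-values down to 0.00895 in the fit with the replicate number as a block.

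The CPA effect itself was compared between the resistant clones and the sensitive lines A3 and wt. No transporter passed (limma, 0 of 10 called, 0 at an unadjusted p under 0.05), against 0.00578% and 2.34% of all genes. The 95% intervals of this difference lay within -0.29 and 0.29 for all 10 genes.

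The rest of the ABC family held genes with differences from wt of more than 1 log2 unit. Of 38 other ABC genes listed, 32 were measured and the others were not analysed here. Against wt in untreated tumours, 1 was called higher and 11 lower in D4, 2 higher and 11 lower in D3, and 3 higher and 10 lower in A3. These were 37.5%, 40.6% and 40.6% of the 32, against 20.1%, 18.1% and 18.5% of all genes. After CPA the counts were 1 higher and 8 lower in D4, 1 and 10 in D3, and 1 and 9 in A3. These were 28.1%, 34.4% and 31.2%, against 15.1%, 16.4% and 16.3% of all genes. The median difference of the 32 genes stayed close to 0, at -0.03 in D4, -0.07 in D3 and -0.03 in A3 untreated, against 0.05, 0.01 and 0.04 over all genes. CPA against control gave 0 calls among the 32 in each line (limma). Among all genes 1.03% were called in D4, 0.231% in D3, 0.352% in A3 and 0.0462% in wt, so this shows nothing particular to the ABC genes.

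ABCA1, which hands cholesterol and phospholipid to apolipoprotein A-I, and ABCG1, which passes cholesterol to high-density lipoprotein, were lower than wt in all 3 clones. In untreated tumours ABCA1 read 6.67, 6.91, 6.60 and 6.77 in D4, 7.18, 6.98, 7.11 and 6.91 in D3 and 6.98, 6.84 and 7.11 in A3, against 7.89, 8.02, 7.76 and 7.70 in wt. The differences were -1.11 in D4, -0.80 in D3 and -0.87 in A3 (limma, largest adjusted p = 4.01e-07), with no overlap. ABCG1 differed by -0.81 in D4, -0.70 in D3 and -0.77 in A3 (limma, largest adjusted p = 6.36e-06).

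ABCA13 had its largest difference from wt in D4. In untreated tumours it read 7.28, 7.21, 6.98 and 6.84 in D4, 7.23, 7.21, 7.43 and 7.14 in D3 and 7.47, 7.43 and 7.97 in A3, against 9.24, 8.88, 9.01 and 8.81 in wt. The differences were -1.91 in D4, -1.73 in D3 and -1.36 in A3 (limma, largest adjusted p = 6.82e-07). ABCA10 differed by -1.05, -1.20 and -1.30 in the same clones when untreated. After CPA ABCA10 averaged 5.23 in D4, 4.55 in D3 and 4.77 in A3, against 5.80 in wt. Genes called lower than wt in all 6 comparisons were ABCA1, ABCA4, ABCA6, ABCA10, ABCA13 and ABCG1.

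Most lower calls were of the A branch, whose members mostly move lipids, a grouping made after the values were seen. Of 12 measured ABCA genes, 9 were lower than wt in each of untreated D4, D3 and A3, and of the 20 other ABC genes 2, 2 and 1 were lower. Among all genes 20.1%, 18.1% and 18.5% were called in either direction. The ABCA genes had median differences of -0.62, -0.62 and -0.65. After CPA 6, 8 and 8 of them were lower. ABCA8, ABCA9, ABCA6, ABCA10 and ABCA5 follow each other on chromosome 17 and are close in sequence, so signal may be shared between their probe sets. Outside that branch ABCB6, a porphyrin transporter, was lower than wt in untreated D4 (-0.39) and D3 (-0.49). The resistant clones differed from A3 in ABCB6 by -0.36 untreated and by -0.30 after CPA (limma, adjusted p = 0.0146 and 0.0161). In this comparison limma called 1 of the 32 genes higher and 2 lower, ABCB6 included, in each treatment. That was 9.38%, against 3.89% of all genes untreated and 8.1% after CPA. The ABCA differences from A3 ran from -0.46 to 0.67 untreated, with 1 called higher and 0 lower. After CPA they ran from -0.59 to 0.58, with 1 called higher and 1 lower. ABCF2, an ABC protein without membrane-spanning segments, was higher than wt in untreated D4 (0.38), D3 (0.46) and A3 (0.48; limma, largest adjusted p = 0.000275).

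**Figure D4:**
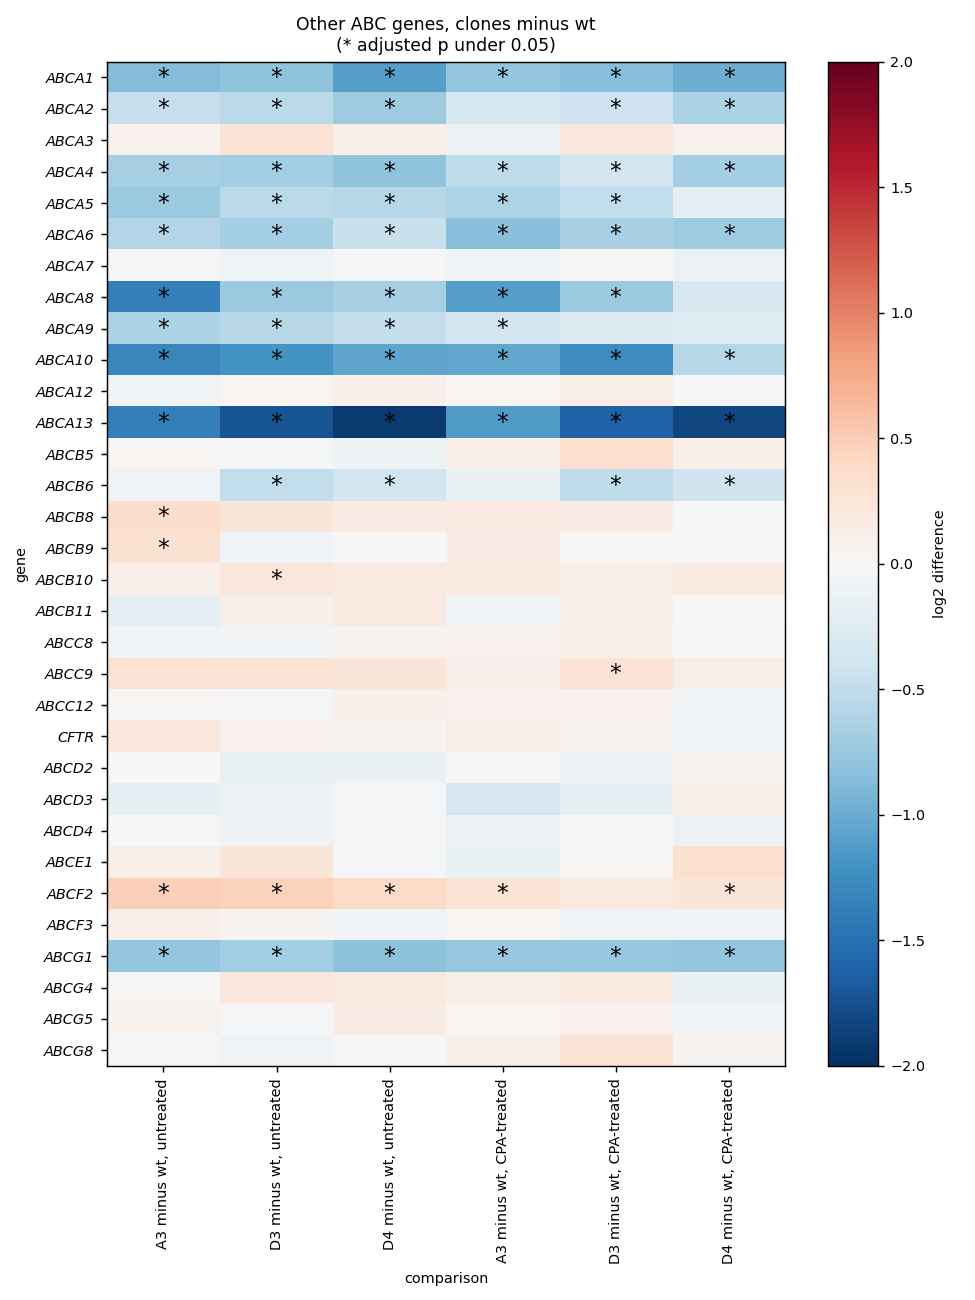
Log2 differences (colour scale) of the 32 other measured ABC genes, one gene per row, for each clone against wt in untreated and CPA-treated tumours, one comparison per column. Asterisks mark adjusted p under 0.05. The darkest cell is that of ABCA13 in untreated D4, at -1.91, and ABCF2 has differences of 0.20 to 0.48.

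Carriers that bring drugs into cells, together with some solute carriers (SLC) that export them, were listed beside the pumps, and 20 of 22 were measured. Against wt in untreated tumours, 2 were called higher in D4, 1 in D3 and 3 in A3, and 0 were called lower (median differences 0.05, 0.01 and 0.01, against 0.05, 0.01 and 0.04 over all genes). These were 10%, 5% and 15% of the carriers, below the 20.1%, 18.1% and 18.5% of all genes called in the same comparisons. SLC29A1, the equilibrative nucleoside transporter ENT1 that admits nucleoside drugs such as gemcitabine, was higher in all 6 comparisons. In untreated tumours it read 8.93, 9.14, 9.22 and 9.00 in D4, 9.14, 9.24, 9.18 and 9.14 in D3 and 8.96, 9.04 and 9.10 in A3, against 8.62, 8.56, 8.57 and 8.62 in wt. The differences were 0.48, 0.59 and 0.44, and after CPA 0.54, 0.54 and 0.40 (limma, largest adjusted p = 0.000212). SLCO3A1, an organic anion transporter, was higher in untreated A3 (0.38, limma, adjusted p = 0.00211), and in CPA-treated tumours higher in A3 (0.24) and lower in D4 (-0.26). SLC22A4, a carnitine and ergothioneine transporter, was higher in untreated A3 (0.36, limma, adjusted p = 0.0181).

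Of 18 transcriptional regulators of the pumps, 14 were measured. Against wt in untreated tumours, 0 were called higher and 2 lower in D4, 3 and 1 in D3, and 2 and 1 in A3. These were 14.3%, 28.6% and 21.4% of the regulators, around the 20.1%, 18.1% and 18.5% of all genes, so the calls show nothing particular to them. ARNT, the partner of the aryl hydrocarbon receptor, was lower in D4 (-0.31) and D3 (-0.34; limma, adjusted p = 0.00497 and 0.00236) and had a difference of -0.16 in A3 (adjusted p = 0.207). NFE2L2, the oxidative stress factor NRF2 that acts through antioxidant response elements, was lower in A3 (-0.37, limma, adjusted p = 0.0450). Its differences in D4 (-0.32) and D3 (-0.17) were not called. CTNNB1, β-catenin, was higher in D3 (0.21) and A3 (0.20), and NFKB1 was higher in D3 (0.23; limma, adjusted p = 0.0181, 0.0382 and 0.0309). Of 5 measured scaffold genes of 7 listed, MSN, which links membrane proteins to actin, was higher in D4 (0.22), D3 (0.25) and A3 (0.33), and CAV1, the coat protein of caveolae, was higher in A3 (0.57; limma, adjusted p = 0.00398).

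Markers of endothelium, fibroblasts, myeloid cells and red cells were listed with the host in mind. The arrays are made for human genes, so signal from host cells and from tumour cells cannot be told apart here. Of 7 endothelial markers, 28.6% were called against wt in untreated D4, 14.3% in D3 and 28.6% in A3. Of 6 fibroblast markers 16.7%, 33.3% and 16.7% were called, against 20.1%, 18.1% and 18.5% of all genes. Among the endothelial genes KDR was lower than wt in untreated D4 (-1.74), D3 (-1.01) and A3 (-1.19). In D4 1 endothelial gene was called higher, and in A3 2 were called lower, KDR included. The other 5 were not called in D4 and A3 and 6 were not called in D3. The median difference of the 7 was 0.17 in D4, -0.02 in D3 and 0.03 in A3. Among the fibroblast genes COL3A1 was lower in all 3 clones (-0.77, -0.61 and -1.01), while COL1A1 was higher in D3 (0.43). Of 5 myeloid genes CD68 was higher in D4 (0.30) and A3 (0.42). Neither of the 2 red cell genes was called. The mean level of the endothelial list was 6.52 in untreated D4, 6.50 in D3 and 6.43 in A3, against 6.60 in wt, and that of the fibroblast list 7.49, 7.58 and 7.38, against 7.59 in wt. The mean level of the myeloid list was 5.74, 5.65 and 5.76 in the same clones, against 5.66 in wt. The part of these markers in the transporter differences was not tested.

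The genes whose 8 group means ran most nearly parallel to ABCC3 were ATP6AP1L (r = 0.993), SRSF5 (r = 0.992) and HUWE1 (r = 0.989). For ABCC5 they were THTPA (r = 0.971), SPDYE7P (r = 0.967) and KIAA1210 (r = 0.965), and for ABCC11 they were LCE1C (r = 0.973), ZIM3 (r = 0.958) and PKDCC (r = 0.951). These correlations are over 8 groups that share the same arrays, and they were picked as the highest of all genes.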

How the data were processed

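Tumour RNA was labelled and hybridised to Affymetrix Human Gene 1.0 ST arrays. The deposited values are log2 expression levels per probe set from the authors' robust multi-array average (RMA), per the submitters' processing notes. The RMA software version was not stated there. The submitters planned 32 arrays and left out 1 as an outlier, so 31 arrays with 23989 probe sets were used. Of these probe sets 17624 carry 1 gene symbol, 411 several and 5954 none, and for each of 17314 genes the probe set with the highest mean was kept. A single limma model (limma 3.58.1, R 4.3.3) with a mean per group and 23 residual degrees of freedom was fitted to all arrays, with p-values adjusted over all genes. Precision is limited by the number of arrays. The members, the other gene lists and the 4 arrays set aside in an alternative were chosen with earlier results of these data known. All 10 transporters are named, and from each other list up to 4 genes with the smallest F test p, with the ABCA genes and others with called differences chosen after their values were seen. Promoter sequences come from RefSeq, GRCh38.p14, which has an entry for 7 of the 10 genes. Alternatives were the replicate block, array weights, a variance trend, other scalings and filters, and leaving out arrays. The fit was also run on simulated data, with changes set larger than most of the transporter differences. How well small differences are recovered is therefore not shown.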

Additional observations from a re-analysis of the deposited data

Results flagged for a closer look

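Of 70 sets of 4 arrays (1 transporter in 1 group), 3 held an array far from the other 3 of its group, and chance alone flags about 1 in 20 such sets. ABCC1 read 8.51 in D4 CPA replicate 4, where the nearest of the other arrays read 8.28. ABCC1 also read 8.38 in wt control replicate 1, with the nearest other array at 8.27. ABCC4 read 8.94 in D3 CPA replicate 5, with the nearest other array at 8.78, and this array is 1 of the 4 set aside in an alternative because they lie far from their group mean over all genes. With those 4 left out, the ABCC4 difference of CPA-treated D3 from wt was still called.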

How the results depend on the processing

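ABCC3 was called lower than wt in all 6 comparisons of a clone with wt under all 9 alternatives and all 31 fits with 1 array left out, with differences from -0.76 to -0.34 and adjusted p-values up to 0.0200. In CPA-treated tumours the count of calls between lines was 5 in the main analysis, 10 with the replicate block and 10 with array weights, and 3 to 7 with 1 array left out, with 3 reached without D3 CPA replicate 3 or 4 or D4 CPA replicate 1 or 5. For the resistant clones against A3 after CPA it was 0, but 1 (ABCC3) with the replicate block, with quantile normalization, without the dimmest 30% of genes and without the 4 farthest arrays, and 0 to 1 with 1 array left out. The array whose loss gave the 1 was D4 control replicate 4 (0.24, adjusted p = 0.0472) or D4 CPA replicate 5 (0.28, adjusted p = 0.0225). In untreated tumours the same comparison gave 1 with the replicate block, where ABCC3 differed by 0.29 (adjusted p = 0.0298). Deviations of same-numbered arrays correlated above 0.1 in 35 of 84 pairs (from -0.66 to 0.60) and in 8 of the 13 pairs within a line. Of 25 pairs of groups that share 3 or more numbers, every correlation was above 0.1 in 2, untreated D3 with D4 and with wt, where the block changed no call. The numbers were therefore not taken to pair the arrays in general, and whether they mark a shared batch is not stated. Counts between untreated lines stayed at 3 to 5, and CPA gave 0 calls in any alternative. No called value changed sign. The cause of these shifts was not tested. The calls of ABCC4, ABCC5 and ABCC11 were lost without single arrays named in the results. The 4 arrays set aside were A3 control replicate 2, D3 CPA replicate 5 and D4 control replicates 1 and 4. Each clone is 1 clone, and the number of arrays limits what could be called.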
